A study of Mus musculus with 6 samples.

Results

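Malat1, Snhg14, Rian and Peg13 are long RNAs that are not known to encode protein, and they were chosen by gene symbol from a table of 5538 genes, in which each of the 4 has a row. RNA was sequenced from the perioculomotor region of the brain of C57BL/6 mice, the tissue around the oculomotor nucleus of the midbrain. All mice carried CreER driven by the Fos promoter together with a Cre-dependent reporter of eGFP-L10a, a ribosomal protein fused to a fluorescent tag, and all underwent 6 hr of sleep deprivation followed by 3 hr of recovery sleep. The drug 4-OHT, which switches CreER on, was given before either phase, and the series text names the neurons labelled in recovery sleep, while the labels of single libraries do not repeat this. IP denotes the 3 libraries of RNA recovered with eGFP antibodies, and Input, read here as the tissue before that step, denotes the other 3. Each repeat pooled 4 to 5 mice, so a replicate is a pool, and the tag marks only cells in which Fos was active while the drug was present.

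Malat1 is an abundant RNA of nuclear speckles, the compartments that store splicing factors, and its end is made by cleavage rather than by ordinary polyadenylation. Snhg14 is the long RNA of the imprinted Prader-Willi and Angelman region. It is made from the paternal chromosome, hosts many small nucleolar RNAs in its introns and, in neurons, runs antisense to the ubiquitin ligase gene Ube3a. Rian, also called Meg8, is a maternally expressed RNA of the Dlk1-Dio3 imprinted region and hosts small nucleolar RNAs and microRNAs. Peg13 is a paternally expressed RNA that lies within the gene Trappc9 and is abundant in brain. A pulldown of tagged cytosolic ribosomes is aimed at messenger RNA in translation, so nuclear RNAs of this kind serve as a reading of RNA that is not on ribosomes.

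In the GENCODE M21 annotation of mm10, Malat1 (ENSMUSG00000092341) lies on chromosome 19 from 5795690 to 5802672, minus strand, and Peg13 (ENSMUSG00000106847) on chromosome 15 from 72805600 to 72810324, minus strand. Snhg14 (ENSMUSG00000100826) lies on chromosome 7 from 59307924 to 59975759, minus strand, and holds 208 annotated small nucleolar RNA genes on its own strand. Rian (ENSMUSG00000097451) lies on chromosome 12 from 109603940 to 109661716, plus strand, with 13 small nucleolar RNA genes and 4 microRNA genes inside it. The longest annotated transcripts of Malat1, Snhg14, Rian and Peg13 are 6983, 6861, 8089 and 4725 nt long. Their longest open reading frames have 64, 91, 76 and 106 codons, or 2.75%, 3.98%, 2.82% and 6.73% of the transcript, against a median of 37.2% in 5355 protein-coding genes of the table and 12.6% in the 63 other genes annotated as long noncoding. No gene annotation is named in the labels, and 5534 of the 5538 identifiers matched this one.

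Malat1, Rian and Snhg14 also carry long runs of A in their sequence, which are printed below because a run of A can stand in for a poly(A) tail in libraries primed with oligo(dT). How these libraries were primed is not stated in the labels, and the part of these runs in the values was not tested. Each sequence is 5′ to 3′ in the sense of the transcript, from GENCODE M21 transcripts on mm10, with the longest A run in capitals.
Malat1, chr19:5795976-5796005, minus strand: agctttAAAAAAAAAAAAgcaaaagacgct
Rian, chr12:109652222-109652251, plus strand: attgctcAAAAAAAAAAAAAAAccattgat
Snhg14, chr7:59975489-59975518, minus strand: catttcAAAAAAAAAAAAAAAAAgaatgac
The Malat1 run of 12 A is part of the known A-rich tract at the end of the mature RNA, which pairs with U-rich stretches further 5′, and the tRNA-like piece that is cut from the primary transcript follows it. The runs of 12, 15 and 17 A in Malat1, Rian and Snhg14 are matched or exceeded in the longest transcript of 10.3%, 5.01% and 3.29% of the 5534 annotated genes. Peg13 has no run over 5 A, a length reached by 84.4% of genes.

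Values are TPM, transcript abundance scaled for transcript length and to a fixed library total, which keep no read depth, so the precision from counting is unknown. The lowest TPM in the table is 7, and the lowest value of each library lies between 7 and 7.21. Every listed gene thus reaches this floor in each library, and an RNA that the pulldown brought lower would be missing. All 4 RNAs stand above the floor, but Rian, at 11.1 to 15.5 TPM in IP, stands near it. How far Rian could fall in IP and still be listed is therefore limited. Among IP libraries 1, 2 and 3 the median gene was at 27.7, 56.5 and 51.0 TPM, and among Inputs 1, 2 and 3 at 64.3, 67.2 and 31.1 TPM. The 10 most abundant rows held 6.03% and 6.13% of the listed TPM in Inputs 1 and 2 but 36.9%, 21.2% and 24.5% in the IP libraries and 51.9% in Input 3. Levels are therefore given as TPM and also as multiples of the median gene of the same library. Differences are in log2(TPM + 1) with the median gene of each library set to 0, a scale that understates changes of low genes. Rpl10a, the tagged ribosomal protein, reached 559, 365 and 439 TPM in IP, against 116.97, 61.8 and 36.2 TPM in Input, and all 12 listed neuron markers had a value. In bulk tissue, fewer cells of a type and less of an RNA per cell cannot be told apart.

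In none of the 4 RNAs did all IP values lie below all Input values, which was so in 9.71% of all genes relative to the median gene and in 6.21% in TPM. With shares this low, the absence of such a gene among 4 does not set these RNAs apart from other genes. In 3 of the 4, 1 library stood far from the rest. Malat1 was near the median gene in IP 1 and more than 10 times above it in the other 5 libraries, Snhg14 was extreme in IP 1 and Rian in Input 1, while Peg13 stayed between 1.58 and 2.89 times the median gene. Limma, fitted to all 5538 genes with a threshold of 0.05 on the adjusted p, called 0 genes higher in IP and 0 lower (0% in each direction), and so none of the 4. At an unadjusted p under 0.05 there were 198 genes with higher and 213 with lower values.

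**Figure D1:**
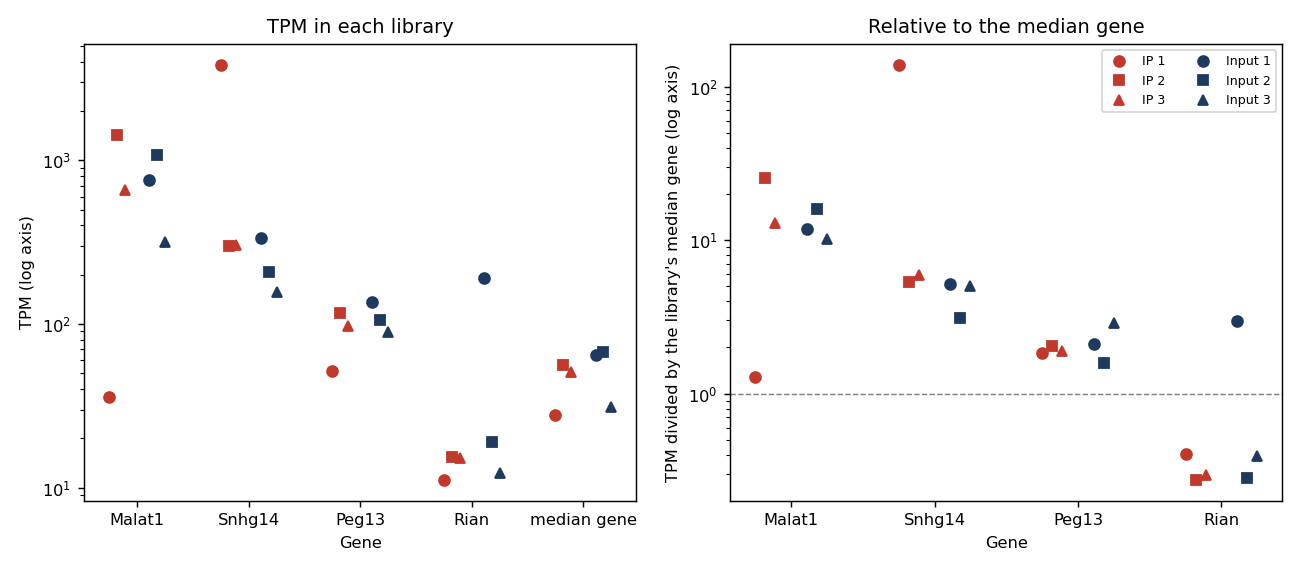
TPM (left) and TPM divided by the library's median gene (right), both on log axes, for Malat1, Snhg14, Peg13 and Rian by library. Red points are IP and dark blue points Input, and the marker shape gives the replicate (circle 1, square 2, triangle 3). Malat1 and Snhg14 of IP 1 and Rian of Input 1 stand apart from the other points of the same gene, and the points of Peg13 lie between 1.58 and 2.89 times the median gene.

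Malat1, the speckle RNA, had 35.7, 1425 and 658 TPM in the IP libraries 1 to 3 and 763, 1076 and 318 TPM in Inputs 1, 2 and 3. Relative to the median gene it stood at 1.29, 25.2 and 12.9 times in the IP libraries and at 11.9, 16.0 and 10.2 times in the Input libraries. The highest and the lowest value were thus both IP libraries, with all Input libraries between them. Relative to the median gene, IP 3 lay inside the range of the Inputs and IP 2 above it. The log2 difference between IP and Input was -0.73 (SE 0.9999, 95% interval -3.07 to 1.61), with a limma adjusted p of 0.833. Without IP 1 the sign turned, to 0.53 (SE 0.39, interval -0.43 to 1.49, adjusted p = 0.796). The direction of the Malat1 difference therefore rested on IP 1.

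The low Malat1 of IP 1 was extreme among genes as well. Its level there was 3.79 log2 units under the mean of IP 2 and IP 3, and 0 of the other genes had a lower difference, where the lowest 5% of genes lay under -1.05. Malat1 ranked at 58.3% of the genes, counted from the lowest, in IP 1 and between 96.6% and 99.0% in the other libraries. The standard deviation of its centred log2 values was 2.24 among IP libraries, against 0.35 for the median gene, and 0.34 among Inputs, where the median gene had 0.34 too. Oligodendrocyte markers were also lowest in IP 1 among IP libraries: the summed TPM of the 6 of 8 markers with a value was 365 in IP 1 against 2920 and 4437 in IP 2 and IP 3. From IP 2 to IP 3 this sum rose, while Malat1 fell. The same sum was 4108, 4877 and 536 in Inputs 1, 2 and 3, where Malat1 had 763, 1076 and 318 TPM. On the centred log2 scale the median oligodendrocyte marker stood at 2.70, 3.06 and 1.27 there, and Malat1 at 3.55, 3.98 and 3.31. Both were thus lowest in Input 3 on either scale. The sum of the 5 of 8 astrocyte markers with a value was 704, 2001 and 2031 in IP and 3470, 3792 and 720 in Input. That of the 12 neuron markers was likewise lowest in IP 1 among IP libraries, at 4544 against 10259 and 8312 TPM. In Inputs 1, 2 and 3 it was 7478, 8140 and 5116 TPM. These sums are not scaled to the median gene, which was also low in IP 1 (27.7 against 56.5 and 51.0 TPM). On the centred log2 scale the median of the 12 neuron markers was highest in IP 1, at 2.36 against 2.05 and 1.92. For the oligodendrocyte markers (0.76 against 2.30 and 3.18) and the astrocyte markers (-0.10 against 0.31 and 0.37) it remained lowest in IP 1. The part of these cells in the Malat1 values was not tested.

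A gene model, Gm37376, lies on the opposite strand inside Malat1 (chromosome 19, 5801941 to 5802393). The labels do not say that the libraries mark strand, so reads of the pair may not be separable. Gm37376 had 117.27, 1697 and 662 TPM in IP and 1033, 1669 and 333 TPM in Input, the same order of libraries as Malat1. The ratio of Malat1 to Gm37376 TPM was 0.305 in IP 1 and between 0.645 and 0.993 elsewhere. The gene model was therefore also lowest in IP 1, though by less than Malat1.

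Neat1, the RNA that builds paraspeckles and lies 22036 bases from Malat1 on the same strand, was not extreme in IP 1. Its 7.55 TPM there was close to the lowest listed value of that library (7.01). A fall as large as that of Malat1 could therefore not have been seen. Neat1 had 7.55, 21.9 and 17.2 TPM in IP and 14.2, 27.6 and 13.4 TPM in Input. Relative to the median gene this was 0.273, 0.387 and 0.337 times in IP and 0.220, 0.411 and 0.432 times in Input. The log2 difference was -0.02 (SE 0.32, limma adjusted p = 0.984), and IP 1 lay 0.32 under IP 2 and IP 3. Dpf2, a chromatin remodelling subunit, had a log2 of -0.26 (SE 0.27).

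Snhg14 had 3837, 300.4 and 303 TPM in the IP libraries 1 to 3 and 334, 208 and 157 TPM in Inputs 1, 2 and 3. As multiples of the median gene these were 139, 5.32 and 5.94 in IP and 5.19, 3.09 and 5.04 in Input. All IP values lay above all Inputs on this scale, as in 6.93% of all genes (384), but IP 2 and Input 1 differed by little, and on the TPM scale the groups overlapped. The log2 difference was 1.91 (SE 1.17, interval -0.84 to 4.66), with a limma adjusted p of 0.706. Without IP 1 it was 0.38 (SE 0.30, interval -0.37 to 1.13, adjusted p = 0.806). The row stands at place 2 of the table, which is sorted by mean IP over mean Input TPM, and that ratio of 6.36 rests on IP 1.

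IP 1 held Snhg14 4.60 log2 units above the mean of IP 2 and IP 3. Only 1 gene, Vamp3, which encodes a membrane fusion protein, stood further above (5.12), and it was picked out after its value was seen. In IP 1, Snhg14 was the 16th most abundant row, against places 414 and 426 in IP 2 and IP 3 and 486 to 921 in the Inputs. The ratio of Malat1 to Snhg14 TPM was 0.00931 in IP 1, and between 2.03 and 5.18 in the other libraries. In IP 1 Malat1 thus lay far below, and Snhg14 far above, the other libraries.

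Genes of the same chromosomal region did not follow Snhg14 into IP 1. Snrpn is a splicing protein of neurons whose transcript, in GENCODE M21, starts 5′ of Snhg14 on the same strand. It stood at 28.9, 22.9 and 26.2 times the median gene in IP and at 24.7, 28.2 and 44.3 times in Input. Snurf, which is read from the same transcripts, so that the division of reads between them is uncertain, stood at 12.3, 8.96 and 10.6 times in IP and 13.9, 11.4 and 1.54 times in Input. In GENCODE M21, Ube3a overlaps the end of Snhg14 by 3613 bases on the opposite strand. The RefSeq annotation gives Snhg14 a longer span, from 59272737 to 60450177, which also covers Snrpn and Snurf. Which span the TPM used is not stated. Ube3a stood at 0.591, 1.09 and 1.05 times in IP and 0.912, 1.28 and 1.07 times in Input. Ube3a was thus lowest in IP 1, where Snhg14 was highest. Meg3, Trappc9 and Snhg11, which lie outside this region, were also lowest in IP 1 on this scale, though Neat1 and Peg13 were not. A link between Ube3a and Snhg14 was not tested. The log2 difference of Ube3a was -0.28 (SE 0.30, limma adjusted p = 0.797). Ndn, a growth-restraining protein 2371 kb away, had a log2 of -0.41 (SE 0.45). None of these 4 neighbours was called.

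**Figure D2:**
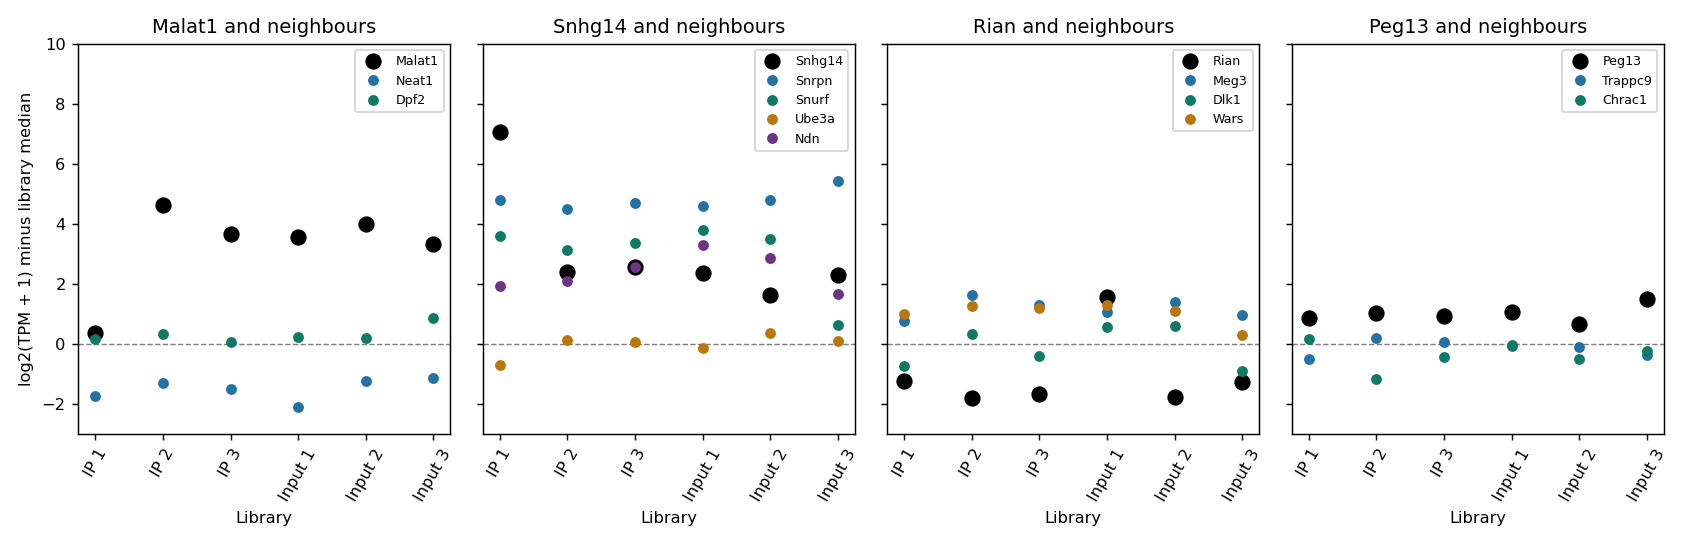
log2(TPM + 1) minus the library median (vertical axis) of each RNA (large black points) and of the neighbours described here (small coloured points) in the 6 libraries. Snhg14 of IP 1 stands at 7.06, above all its neighbours, and Rian of Input 1 at 1.56, above Meg3, Dlk1 and Wars.

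Rian had 11.1, 15.5 and 15.1 TPM in the IP libraries 1 to 3 and 192, 18.98 and 12.2 TPM in Inputs 1, 2 and 3. In 5 libraries it stood between 0.274 and 0.402 times the median gene, and in Input 1 at 2.98 times. Apart from Input 1 the groups overlapped. The log2 difference was -1.08 (SE 0.80, interval -2.96 to 0.80), with a limma adjusted p of 0.736. Without Input 1 it was -0.05 (SE 0.33, interval -0.84 to 0.74, adjusted p = 0.981). Rian takes place 5535 of 5538 in the sorted table, with a ratio of mean TPM of 0.187, and that place rests on Input 1.

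Inputs 1 and 2 otherwise resembled each other, and Rian had the largest difference of all genes between them, at 3.33 log2 units with 0 genes higher. The central 90% of genes lay between -0.53 and 0.56. Cotl1 and Elp6 followed, at 3.30 and 3.19, and were picked out after their values were seen. Meg3, the maternal RNA whose transcription unit precedes Rian by 32.2 kb on the same strand, was not raised there: it had 47.0, 175 and 127 TPM in IP and 134, 178 and 60.6 TPM in Input. Relative to the median gene Meg3 stood at 1.70, 3.09 and 2.49 times in IP and 2.09, 2.65 and 1.95 times in Input, with a log2 difference of 0.09 (SE 0.30, limma adjusted p = 0.928). In the 5 libraries other than Input 1, Meg3 was several times as abundant per length as Rian, and in Input 1 it was lower. Dlk1, a paternally expressed membrane protein of this region, had a log2 of -0.37 (SE 0.48). Wars, a tRNA synthetase gene 710 kb away, had 0.26 (SE 0.31).

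**Figure D3:**
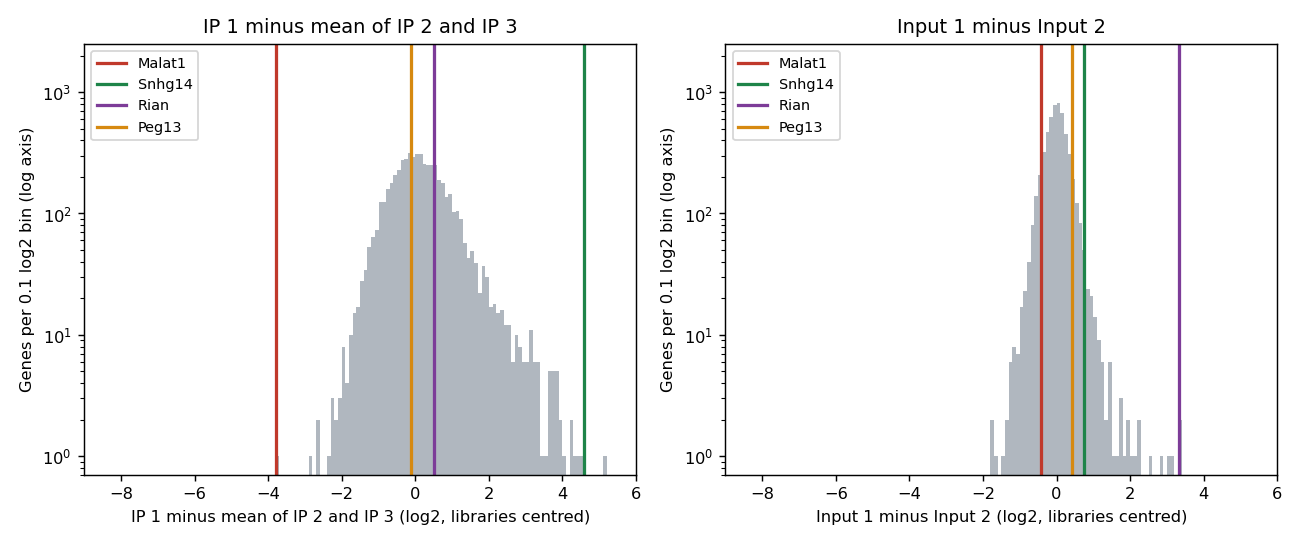
Number of genes (log axis) by the centred log2 difference of IP 1 from the mean of IP 2 and IP 3 (left) and of Input 1 from Input 2 (right), with a coloured line for each of the 4 RNAs. Malat1 is the lowest gene on the left at -3.79 and Snhg14 is near the upper end at 4.60, and Rian is the highest on the right at 3.33, while Peg13 lies inside the bulk in both.

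Peg13 had the smallest range of the 4 over all 6 libraries, at 0.85 centred log2 units, and 29.5% of genes had a smaller one. It had 51.3, 116 and 96.8 TPM in IP and 136, 106 and 89.7 TPM in Input. Relative to the median gene it stood at 1.85, 2.06 and 1.90 times in IP and at 2.12, 1.58 and 2.89 times in Input, so that the IP values lay inside the range of the Inputs. The standard deviation of its centred log2 values was 0.08 among IP libraries, and 4.77% of genes had a smaller one. Among Inputs it was 0.43, with 60.6% of genes smaller, and lay above that of Malat1 (0.34) and Snhg14 (0.41). The log2 difference was -0.14 (SE 0.28, interval -0.80 to 0.53), with a limma adjusted p of 0.881. Without Input 3 it was 0.08 (SE 0.24). Changes of over 0.80 log2 units downward or 0.53 upward lie outside the interval from all 6 libraries.

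Trappc9, a trafficking protein gene whose intron holds Peg13 on the same strand, stood at 0.682, 1.14 and 1.04 times the median gene in IP and 0.939, 0.917 and 0.765 times in Input. Its log2 difference was 0.10 (SE 0.27, limma adjusted p = 0.912). Peg13 was higher than its host gene in every library. Chrac1, a histone-fold protein 280 kb away, had a log2 of -0.23 (SE 0.36). Both therefore lay within their own spread, as Peg13 did.

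The order of the 4 RNAs per length was Malat1, Snhg14, Peg13, Rian in IP 2, IP 3, Input 2 and Input 3. In Input 1 Rian passed Peg13, and in IP 1 the order was Snhg14, Peg13, Malat1, Rian. On the centred log2 scale of the Inputs, Malat1 (3.31 to 3.98) did not overlap Snhg14 (1.62 to 2.36), which did not overlap Peg13 (0.65 to 1.4999), whereas Peg13 and Rian (-1.77 to 1.56) overlapped through Input 1. Among IP libraries, Malat1 (0.36 to 4.63) overlapped both Snhg14 (2.39 to 7.06) and Peg13 (0.87 to 1.03), and Rian (-1.80 to -1.24) lay under all of them. Among the 67 genes annotated as long noncoding, Malat1 was the most abundant in Inputs 1 and 2 and took places 28, 7 and 8 in IP and 10 in Input 3. Several gene models without a known function stood above it there: the 63 long noncoding genes other than these 4 summed to 3828 and 3861 TPM in Inputs 1 and 2, to 194648, 120836 and 127918 TPM in IP and to 243796 TPM in Input 3.

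Other noncoding RNAs with a value lay on both sides of 0. Every listed gene reaches the lowest TPM of the table in all IP and Input libraries. Members that the pulldown depleted beyond that floor would thus be missing, here and in the lists that follow. The members with a value therefore cannot decide whether such RNAs were depleted as a class. Of a list of 49, 8 had a value, of which 5 lay above and 3 below 0, with a median log2 of 0.07 against 0.02 for all genes, and limma called 0. Without IP 1 and Input 3 that median was 0.15, with 5 above 0. By library the median of the 8 was -0.17 in IP 1, -1.31 and -0.89 in IP 2 and IP 3, and -0.36, -0.98 and -1.05 in the Inputs. Gas5, a growth-arrest RNA whose spliced form is known to sit on ribosomes, had 142, 66.7 and 84.8 TPM in IP and 271, 175 and 41.5 TPM in Input. Its log2 difference was -0.18 (SE 0.62), and relative to the median gene it was higher in IP 1 (5.13 times) than in IP 2 and IP 3 (1.18 and 1.66 times). Snhg11, a neuronal host gene of small nucleolar RNA, had 14.9, 186 and 92.5 TPM in IP and 66.2, 142 and 42.7 TPM in Input. Like Malat1 it was lowest in IP 1, at 0.539 times the median gene. Zfas1, another host gene, had a log2 of 0.19 (SE 0.54), and like Snhg14 was higher relative to the median gene in IP 1 (1.15 times) than in IP 2 and IP 3 (0.368 and 0.350 times). Snhg15, a further host gene picked out after its value was seen, stood at 1.37 times in IP 1, 0.151 and 0.149 times in IP 2 and IP 3, and 0.133 to 0.235 times in the Inputs. The 63 other annotated long noncoding genes had a median log2 of 0.15, with 37 above and 26 below 0, and of 0.05 with 32 above 0 without IP 1 and Input 3.

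Messenger RNAs known to keep introns in the nucleus are, while they stay there, out of reach of ribosomes. Of 20 listed, 12 had a value, 4 above and 8 below 0, with a median log2 of -0.35, and limma called 0. Without IP 1 and Input 3 the median turned to 0.11, with 6 of 12 above 0, against -0.04 for all genes. The median of these 12 was -0.41 in IP 1, -0.06 and 0.00 in IP 2 and IP 3, and -0.05, 0.07 and 0.03 in the Inputs. In 3 of the 12 all IP values lay under all Inputs, beside 9.71% of all genes (538). Srsf5, a splicing factor, was among these (log2 -0.80, SE 0.35, adjusted p = 0.649), and Srrm2, a speckle scaffold protein, had 0.77 (SE 0.48). Rsrp1 and Ddx5 had -0.38 (SE 0.34) and -0.36 (SE 0.42).

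Abundant, translated messenger RNAs had a median log2 of 0.11 (20 of 21 with a value, 15 above 0, 0 called), and the 6-library values of Malat1, Rian and Peg13 lay below and that of Snhg14 above this median, with no test of that difference. Without IP 1 and Input 3 the median was -0.01 (9 of 20 above 0), and Malat1 (0.38) and Peg13 (0.11) then lay above it, as did Snhg14 (0.48), while Rian (-1.64) lay below. The Rian value rests on Input 1, which this comparison keeps, and with only Input 1 left out it was -0.05. Ubb, Aldoa, Hspa8 and Atp5b, which make ubiquitin, a glycolytic enzyme, a chaperone and an ATP synthase subunit, had log2 values of -0.09, 0.09, -0.12 and 0.18. Transcripts of the mitochondrial genome are read by mitochondrial ribosomes, which lack L10a, or, as mt-Rnr2, are ribosomal RNA of these ribosomes. They are thus another class outside the tagged ribosomes. The 3 of 15 with a value, mt-Co1, mt-Nd1 and mt-Rnr2, had log2 values of -1.05, -0.93 and -1.36 (0 called), with a median of -1.05 that became -2.31 without IP 1 and Input 3. The sum of these 3 was 188, 884 and 573 TPM in IP and 4696, 4461 and 65.1 TPM in Input, with Input 3 under all IP libraries.

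Protein-coding genes of imprinted regions had 19 of 45 listed members with a value, 5 above and 14 below 0, with a median log2 of -0.28, and limma called 0. Without IP 1 and Input 3 the median was -0.46, with 3 of 19 above 0, and Nnat, a membrane protein of developing neurons, was called lower. In 5 of the 19 all IP values lay under all Inputs, beside 9.71% of all genes. Nap1l5, a nucleosome assembly protein, was among them, with 225, 550.1 and 681 TPM in IP and 1350, 1269 and 1169 TPM in Input (log2 -1.28, SE 0.39, adjusted p = 0.649). Gnas, which encodes the stimulatory G protein subunit, had a log2 of 0.95 (SE 0.74), with 1075, 1901 and 1672 TPM in IP and 2423, 2001 and 160 TPM in Input. The RNAs Snhg14, Rian and Peg13, with log2 values of 1.91, -1.08 and -0.14, thus lay on both sides of 0, as these coding genes did.

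When IP 1 and Input 3 were left out, 187 genes were called higher in IP (3.38%) and 160 lower (2.89%), and none of the 4 RNAs was among them. Their log2 differences were then 0.38 for Malat1 (SE 0.31, limma adjusted p = 0.478), 0.48 for Snhg14 (SE 0.25, 0.287), -1.64 for Rian (SE 0.83, 0.272) and 0.11 for Peg13 (SE 0.21, 0.775). This fit keeps Input 1, the library on which the Rian difference rests. Malat1 had 12.9 and 25.2 times the median gene in those IP libraries and 11.9 and 16.0 in those Inputs. In the same fit the 3 mitochondrial transcripts, Gas5 and Nnat were called lower, and no test of their difference from the 4 RNAs was made. Cell type markers were called in both directions in this fit. Of the neuron markers 5 of 12 were called higher, namely the neurofilament genes Nefl and Nefm, Chat, which makes acetylcholine, the transcription factor Isl1 and the neuropeptide gene Calca. Of the astrocyte markers 2 of 5 (Agt and Ntsr2) and of the oligodendrocyte markers 1 of 6 (Mal) were called lower. Called or not, 9 of 12 neuron, 0 of 5 astrocyte and 2 of 6 oligodendrocyte markers lay above 0. The latter 2 were Mbp (0.41) and Mobp (0.34). The part of these cell types in the values of the 4 RNAs was not tested.

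The genes with the profile most like each RNA over the 6 libraries were found among 2629 genes by Pearson correlation of centred log2 values, as a description. They were Abr, Ip6k1 and Hspa4l for Malat1 (r = 0.993, 0.988 and 0.985) and Tnks2 and Eif3g for Snhg14 (r = 0.996 and 0.992), all sharing the low or high point of IP 1. For Rian they were Sept5, Psmd5 and Atcay (r = 0.932, 0.922 and 0.920), and for Peg13 Amd1, Mocs2 and Blmh (r = 0.959, 0.948 and 0.940). Abr, a regulator of small GTPases, ran from 0.07 in IP 1 to 1.20 in IP 2 on the centred log2 scale, where Malat1 ran from 0.36 to 4.63. The likeness is thus one of shape and not of size.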

How the data were processed

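The authors deposited 1 table of TPM (length-scaled transcript abundance, named so per the file headers) for 5538 genes in 3 IP and 3 Input libraries, with no value under 7. RSEM, DESeq and mm10 are named, per the submitters' processing notes, without versions or roles. No aligner is named in the sources used here. TPM were transformed to log2(TPM + 1) and the median of each library was subtracted, because these medians differed by -0.25 log2 units on average between IP and Input. IP was compared with Input in limma 3.58.1 (R 4.3.3; lmFit, eBayes with trend, group as the only term), with p-values adjusted by Benjamini-Hochberg across the whole table and called under 0.05, and the procedure was tested on simulated data. With 3 libraries per group an exact permutation test of 1 gene cannot go below p = 0.1. No libraries held identical values. Gene positions and transcripts are from GENCODE M21, apart from the RefSeq span given for Snhg14.

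The 4 RNAs and the lists were chosen with earlier results of these data known. Named genes are the 4 RNAs, their listed neighbours, the 4 most abundant genes of each list, the 3 most similar genes per RNA and Rpl10a; 2 genes that this rule names are not reported here. Alternatives were a pseudocount of 0.1, uncentred and quantile-normalized libraries, a mean of at least 20 TPM, the replicate number as a block and left-out libraries.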

Additional observations from a re-analysis of the deposited data

How the results depend on the processing

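Of 48 alternative values for the 4 RNAs, 44 kept the direction and 0 passed the threshold. The sign of Malat1 turned without IP 1 (0.53) and without IP 1 and Input 3 (0.38), and that of Peg13 turned without Input 3 (0.08) and without IP 1 and Input 3 (0.11). Leaving out 1 library in turn, Malat1 ranged from -1.60 to 0.53, Snhg14 from 0.38 to 2.72, Rian from -1.72 to -0.05 and Peg13 from -0.35 to 0.08. The count of genes called higher ranged from 0 to 16 and of those lower from 0 to 1, the upper ends being without Input 3. Without IP 1 and Input 3 the counts were 187 and 160. All these library choices leave fewer samples, and a group of 2 is assumed to vary as the other group does. Correlations of deviations from the group mean were -0.10, 0.25 and -0.17 for same-numbered libraries, and between -0.25 and 0.19 for the others. With 3 libraries per group they cannot decide whether the numbers pair the libraries. With the replicate block the differences stayed at -0.73, 1.91, -1.08 and -0.14, with 0 genes called higher and 0 lower. The SE were then 0.75, 0.83, 0.55 and 0.35, against 0.9999, 1.17, 0.80 and 0.28 without the block. Without centring they were -0.98, 1.66, -1.33 and -0.38. Depth is unknown, so counting error cannot be separated from the spread between pools.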
